A study of Mus musculus with 5 samples.

Results

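Small nucleolar RNAs (snoRNAs) are mostly cut out of the introns of longer host RNAs, and some hosts encode no protein. The 10 non-coding host genes described here, Gas5, Zfas1, Snhg1, Snhg3, Snhg5, Snhg6, Snhg8, Snhg12, Snhg15 and Epb41l4aos, were taken by name from a table of 55573 genes. They were chosen with earlier results of these data known. All 10 had a row, all 10 had reads in every library, and all 10 were among the 15581 genes tested. RNA was measured by RNA-seq in N2A (Neuro-2A) cells, a mouse neuroblastoma line, 60 pmol of siRNA being transfected in both groups. The 2 control libraries (siCtl, replicates 1 and 3) came from cells given Silencer Negative Control #1, and the 3 siUpf1 libraries (replicates 1, 2 and 3) from cells given an siRNA against Upf1, the RNA helicase required for nonsense-mediated mRNA decay (NMD). The study used this knockdown, together with sequencing of RNA precipitated with phosphorylated UPF1, to define NMD targets of neural cells. The knockdown was transient and partial, and the labels do not say whether replicates came from separate cultures. The study calls its protein blots of cells treated in this way independent experiments, without saying so of the libraries, so p-values measure the spread between these libraries.

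A host gene makes 2 kinds of product from 1 transcript. The introns yield snoRNAs, which guide 2′-O-methylation (box C/D type) or pseudouridylation (box H/ACA type) of ribosomal RNA or take part in its processing, while the spliced exons are exported, meet ribosomes on short open reading frames and are classically degraded by NMD. Host RNAs are often transcribed from 5′ terminal oligopyrimidine (TOP) start sites, where the RNA begins with a C followed by a run of pyrimidines, the feature that ties ribosomal protein mRNAs to growth control through mTOR. Gas5, named for its rise in growth-arrested cells, is the textbook case of a host RNA that accumulates when translation or NMD is blocked.

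The starts of the host RNAs are shown because a TOP start is a feature that the choice of genes did not use. A start was counted where an annotated transcript (GENCODE M21, genome build GRCm38) began with C followed by at least 4 further C or T, and 7 of the 10 genes had such a transcript. These were 5 of 25 transcripts in Gas5, 3 of 10 in Snhg12, and 1 of 3 to 6 in Zfas1, Snhg3, Snhg5, Snhg6 and Snhg8. In these 7 genes a transcript with the run was chosen for print. The starts are those of the annotation and were not mapped in these cells. Each line gives the first 24 bases of 1 transcript, 5′ to 3′, with the opening pyrimidine run in capitals:

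Gas5: CTTTCggagctgtgcggcattctg
Zfas1: CCTTTCgttccggcggctcctaga
Snhg3: CTCTCTaggcgtcgctctcttggt
Snhg5: CTTTTacgacggagcctaagatat
Snhg6: CTTTCTCggcagcgccgtagagcg
Snhg8: CCCTCgcgcgcaggctcttgggag
Snhg12: CTTTCTCgcttcatccgcggtccc
Snhg1: gttcttgtcggcctcatttttcct
Snhg15: gtgagcgtcctcagctggcagcca

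The runs were 5 to 7 bases long. The printed bases lie at chr1:161035166-161035189 (Gas5, plus strand), chr2:167063221-167063244 (Zfas1, plus), chr4:132353610-132353633 (Snhg3, minus), chr9:88522865-88522888 (Snhg5, minus), chr1:9944095-9944118 (Snhg6, minus), chr3:123508381-123508404 (Snhg8, minus), chr4:132308677-132308700 (Snhg12, plus), chr19:8723475-8723498 (Snhg1, plus) and chr11:6528723-6528746 (Snhg15, minus), each at the 5′ end of exon sequence. Snhg1 and Snhg15 had no annotated transcript with such a start, and neither had Epb41l4aos, whose start is not printed. Among all tested genes with a transcript model, 9.54% had a transcript of this kind, against 5.15% of the other lncRNA genes, 10.8% of protein-coding genes and 44.3% of ribosomal protein genes. A gene with more annotated transcripts has more chances of such a start, and the host genes had a median of 5 transcripts, the ribosomal protein genes 6, all tested genes 4 and the other lncRNA genes 1. When 1 representative transcript was read per gene, 1 of 10 host genes began with the run, against 13.9% of ribosomal protein genes, 2.65% of the other lncRNA genes and 2.27% of all tested genes.

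The genes were compact and differed in how many snoRNAs they carry. Gas5 held 9 annotated snoRNA loci, Snhg1 held 8, Snhg12 held 4, Zfas1 held 3, Snhg3 and Snhg5 held 2 each, and Snhg6, Snhg8, Snhg15 and Epb41l4aos held 1 each, 32 in all. The representative transcripts were 430 to 1004 nt long after splicing. Gas5 had the most exons (12) for 502 nt of RNA, and Snhg8 and Snhg15 had the fewest (2). In the representative transcripts of Snhg12 and Snhg15 an exon held a snoRNA (Snord99 and Snora9). This sequence is intron in another annotated transcript, so these lengths and exon counts are not those of fully spliced RNA.

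**Figure D1:**
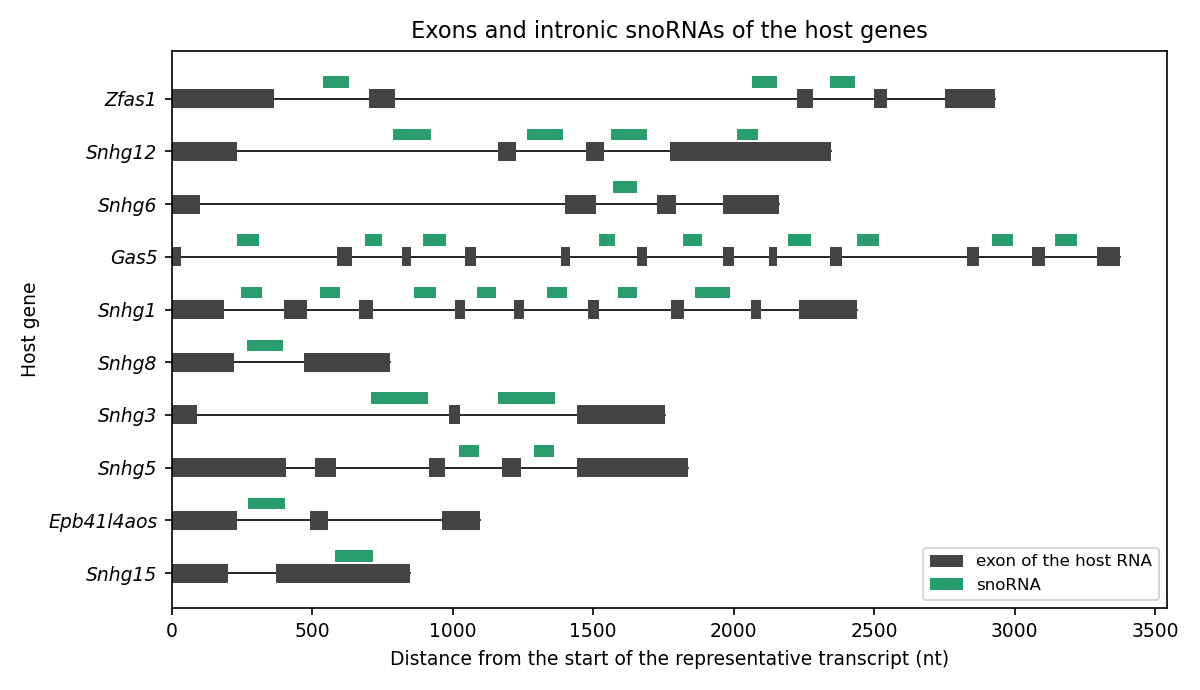
Gene structures of the 10 host genes, ordered by fold change. The horizontal axis is the distance in nt from the start of the representative transcript, dark boxes are its exons and green boxes are annotated snoRNAs. A total of 31 snoRNA loci are drawn, 9 of them in Gas5, and the 1 further locus of Snhg1 lies outside the representative transcript.

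Reading frames of these RNAs were short. The first AUG with an in-frame stop opened a frame of 1 codon in Snhg8, 3 in Snhg5, 7 in Snhg1, 17 in Zfas1, 23 in Gas5, 34 in Epb41l4aos, 35 in Snhg15, 42 in Snhg3, 53 in Snhg6 and 54 in Snhg12. In 9 of the 10 representative transcripts at least 1 exon-exon junction lay more than 50 nt after that stop, the arrangement that marks an mRNA for NMD, and Snhg3 was the exception. Gas5 and Snhg1 had 7 such junctions each. The same reading found a junction of this kind in 62.2% of the other lncRNA genes and in 49.6% of all tested genes. No translation was measured, so these are properties of the annotated sequence.

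The 5 libraries held 20402205 to 27717594 assigned reads. The targeted gene was lower in each siUpf1 library: Upf1 stood at 5230 ± 18.1 normalised counts (SD, n = 2) in control cells and at 2449 ± 46.6 (n = 3) in siUpf1 cells, which by DESeq2 is a log2 fold change of -1.10 (SE 0.051) at an adjusted p of 7.27e-101. All 16 neural and neuroblastoma markers had a mean over the 5 libraries of at least 100 normalised counts (Dbh reached it through siUpf1, with a siCtl mean of 93), against 3 of 16 markers of other cell types, among which Lum was at 0. The summed level of the neural markers was 60649 to 60904 in siCtl and 69876 to 73773 in siUpf1, with 11 called higher and 2 lower, and that of the other markers was 960 to 996 and 889 to 905. The part of these shifts in the results below was not tested, and in bulk RNA fewer cells of a type cannot be told apart from less RNA per cell.

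All 10 host RNAs were lower in siUpf1 cells. This direction is opposite to the accumulation described above for Gas5 when NMD is blocked, and its cause was not tested. Each passed DESeq2's test at an adjusted p under 0.05, a threshold that 43.7% of all tested genes passed, 22.3% as lower and 21.4% as higher. Because the 10 genes were chosen with earlier results of these data known, the shares set beside them are a description only. In each of the 10 genes every siUpf1 library lay below both siCtl libraries, which was so for 34.7% of all tested genes. The median log2 fold change of the 10 genes was -0.52, with a range of -0.95 to -0.28, while the median of all tested genes was -0.00. A total of 5 of the 10 fell by at least 0.5 on the log2 scale, and 8.11% of all tested genes were called and fell that far. In sum, the 10 genes gave 30807 ± 854 normalised counts in siCtl and 19757 ± 693 in siUpf1, which is 64.1% of the control level. Of all assigned reads the 10 genes took 0.119% and 0.125% in the siCtl libraries and 0.0836%, 0.078% and 0.0768% in the siUpf1 libraries (replicates 1, 2 and 3).

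**Figure D2:**
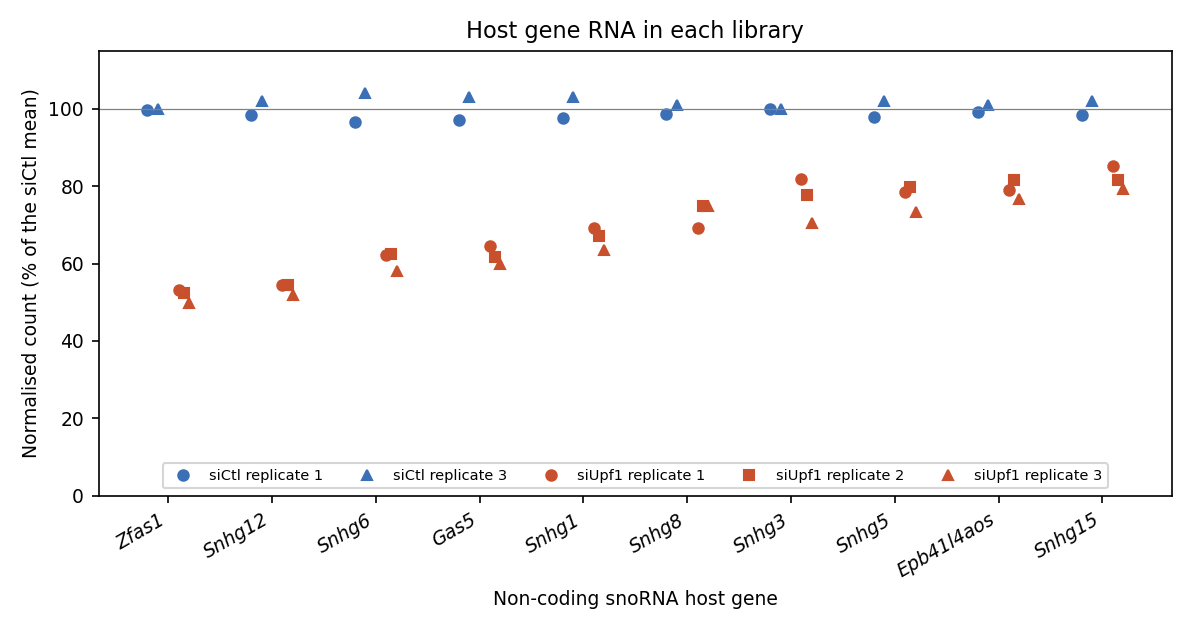
Normalised count of each host gene in each library, as a percent of that gene's siCtl mean, with genes ordered by fold change. Blue points are the 2 siCtl libraries and orange points the 3 siUpf1 libraries. The siUpf1 points run from 49.7% (Zfas1, replicate 3) to 85.3% (Snhg15, replicate 1), and in no gene do the groups overlap.

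The largest decreases were those of Zfas1 and Snhg12. Zfas1, a host of the box C/D snoRNA Snord12, gave 6138 and 6191 normalised counts in siCtl and 3280, 3239 and 3066 in siUpf1. Its level was thus 51.8% of control (DESeq2 log2 fold change -0.95, SE 0.050, adjusted p = 4.32e-77). Snhg12, which carries Snora16a, Snora44, Snora61 and Snord99, gave 3176 and 3276 in siCtl and 1756, 1753 and 1679 in siUpf1 (DESeq2 log2 fold change -0.90, SE 0.059, adjusted p = 7.71e-51). Within each group the libraries were close to each other, and the distance between groups was over 10 times the SD between libraries of a group.

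Gas5, Snhg6 and Snhg1 formed the middle of the range. Gas5, the host of Snord47, Snord78 and Snord80 among others and the most abundant of the 10 by count, gave 6702 and 7124 in siCtl and 4459, 4258 and 4141 in siUpf1 (DESeq2 log2 fold change -0.69, SE 0.051, adjusted p = 1.14e-39). Snhg6, the host of Snord87, gave 1666 and 1788 in siCtl and 1076, 1078 and 1003 in siUpf1 (DESeq2 log2 fold change -0.72, SE 0.075, adjusted p = 2.19e-20). In both genes the siUpf1 libraries were at 58.1% to 64.5% of the siCtl mean. Snhg1, the host of Snord22 and the gene with the second-largest number of snoRNAs, gave 4354 and 4580 in siCtl and 3092, 2996 and 2837 in siUpf1 (DESeq2 log2 fold change -0.59, SE 0.056, adjusted p = 1.68e-24).

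The remaining 5 genes kept between 72.9% and 82.2% of their control level. Snhg8, the host of Snora24, gave 632.1 and 650.0 in siCtl and 443.8, 479.4 and 479.6 in siUpf1 (DESeq2 log2 fold change -0.46, SE 0.105, adjusted p = 6.2e-05). Snhg5, the host of Snord50a and Snord50b, gave 4230 and 4401 in siCtl and 3389, 3441 and 3162 in siUpf1 (DESeq2 log2 fold change -0.37, SE 0.055, adjusted p = 7.79e-11). Snhg5 was thus an abundant host with a moderate decrease, and so was Snhg15. Snhg15, the host of Snora9, gave 2542 and 2632 in siCtl and 2207, 2115 and 2055 in siUpf1, the smallest decrease of the 10 (DESeq2 log2 fold change -0.28, SE 0.060, adjusted p = 1.3e-05).

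Snhg3 and Epb41l4aos had the lowest counts and the widest errors. Snhg3, which carries Snora73a and Snora73b, the U17 snoRNAs that act in cleavage of pre-ribosomal RNA, gave 420.3 and 420.8 in siCtl and 344.2, 326.3 and 296.8 in siUpf1 (DESeq2 log2 fold change -0.38, SE 0.128, adjusted p = 0.00788). Epb41l4aos gave 341.7 and 348.1 in siCtl and 272.1, 281.1 and 264.7 in siUpf1 (DESeq2 log2 fold change -0.34, SE 0.136, adjusted p = 0.0295). The groups did not overlap in either gene, but both calls were lost in smaller sets of libraries, at fold changes of similar size. Leaving out siCtl replicate 1, siCtl replicate 3 or siUpf1 replicate 3 ended the call for Snhg3 (log2 fold change -0.39, -0.39 and -0.32, adjusted p = 0.0885, 0.102 and 0.0861), and leaving out any 1 of the 5 libraries ended that for Epb41l4aos (log2 fold change -0.36 to -0.32, adjusted p from 0.0586 to 0.203). The other 8 genes were called lower under each of the 13 alternatives.

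**Figure D3:**
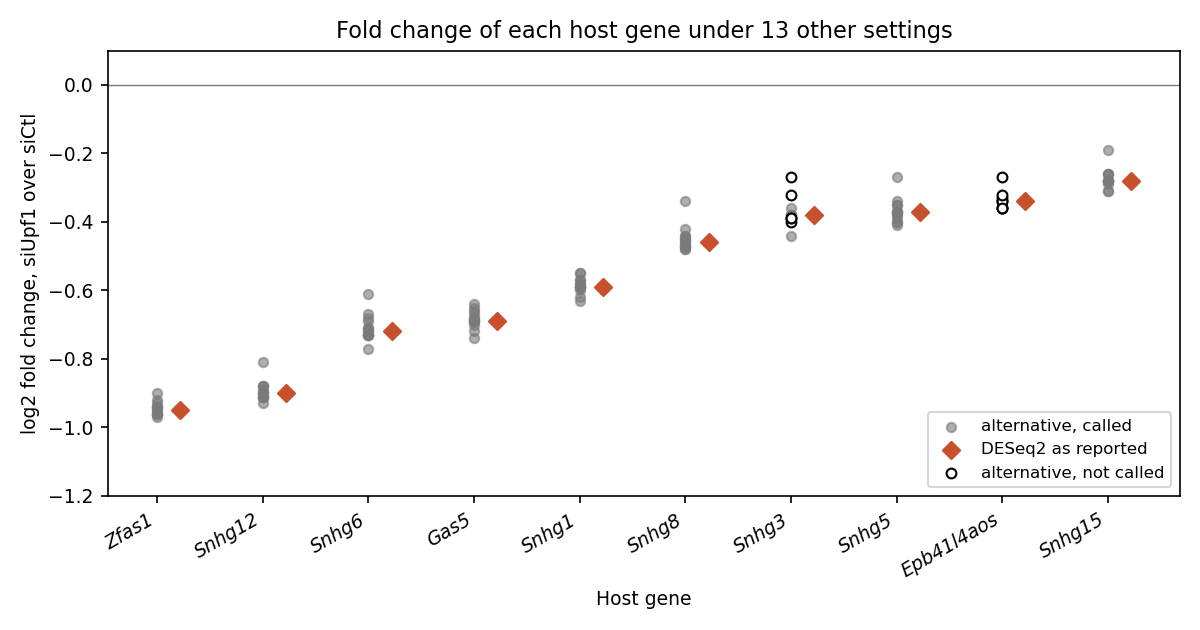
log2 fold change (siUpf1 over siCtl) of each host gene in the reported DESeq2 test (diamonds) and under 13 alternatives (circles, open where the adjusted p was 0.05 or above). Every value is below 0, and open circles occur in Snhg3 (5) and Epb41l4aos (8) only.

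The order of the 10 decreases was not resolved between neighbours. The fold changes of Zfas1 and Snhg15 differed by 0.67 on the log2 scale (95% interval 0.51 to 0.82, from the standard errors of the fit). This pair was picked as the largest and smallest decrease, which favours an interval clear of 0, and the interval was not adjusted for that choice. For each pair of neighbours in the order the interval of the difference included 0 at 2 decimals, the closest to leaving it out being Snhg12 and Snhg6 (0.18, -0.00 to 0.37). Across the 10 genes, which share their libraries, the log2 fold change had a Spearman's rho of -0.53 with the number of snoRNA loci, -0.53 with the exon length of the gene, -0.52 with the number of exons and 0.03 with GC content. These values are given as a description of 10 genes only. The libraries also had an order: siUpf1 replicate 3 was the lowest of its group in 9 of the 10 genes (all but Snhg8), and siCtl replicate 3 was the higher of its pair in all 10.

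Levels between genes can be compared only per length. Per kilobase of the gene's merged exons, siCtl levels were 2490 ± 70.1 normalised counts for Snhg5, 2100 ± 12.6 for Zfas1, 1900 ± 46.9 for Snhg15, 1840 ± 79.3 for Gas5, 1510 ± 75.4 for Snhg6, 1500 ± 53.8 for Snhg1 and 1340 ± 29.3 for Snhg12 (SD, n = 2). Epb41l4aos (802 ± 10.5), Snhg8 (752 ± 14.9) and Snhg3 (427 ± 0.307) were lower. Snhg15 and Gas5 differed by less than the SD of Gas5, and Snhg6 and Snhg1 by less than the SD of either. In siUpf1 cells the same levels were 1930 ± 85.9 for Snhg5, 1560 ± 56.3 for Snhg15, 1140 ± 42.7 for Gas5 and 1090 ± 38.9 for Zfas1 (n = 3). By this length Zfas1 stood below Snhg15 after the knockdown and above it before, a change of order not seen with the other lengths below. The order depended on the length used: per kilobase of the longest annotated transcript Snhg15 came first in siCtl (3830), followed by Snhg5 (3530), Gas5 (2700) and Zfas1 (2680). Per kilobase of the spliced representative transcript Gas5 came first (13800), followed by Zfas1 (8350), Snhg1 (6300), Snhg5 (4300) and Snhg15 (3830). In siUpf1 cells Zfas1 and Snhg15 stood at 1390 and 3150 by the longest transcript, and at 4330 and 3150 by the spliced one. Zfas1 was thus below Snhg15 in both groups by the longest transcript and above it in both by the spliced one.

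These counts are of genes, not of spliced isoforms. Annotated transcripts that retain introns extend the merged exons over 91.3% to 100% of the locus in Gas5, Zfas1, Snhg1, Snhg5, Snhg8 and Snhg12, so reads from unspliced or partly spliced host RNA were counted in these 6 genes together with those from mature RNA. Stretches of 100 nt, the read length, that also occur in another gene were sought in either orientation. They made up 63.3% of the representative Snhg3 transcript, 14.1% of Zfas1, 7.5% of Snhg6, 5.9% of Snhg15 and 0.0% of the other 6. For Snhg15 the other gene was Snora9, the snoRNA inside its own exon, and for Zfas1 it was Gm27494. For Snhg3 and Snhg6 the other gene (Gm17300 and Mcmdc2) overlaps on the opposite strand, and reads were counted by strand. Snhg3 also shares exon sequence with Rcc1 on the same strand, where a read matches 2 genes, which makes its count less certain.

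The snoRNA rows of the same table gave little signal. Mature snoRNAs carry no poly(A) tail and the libraries were made from poly(A) RNA, so these rows do not measure them. Of 34 snoRNA entries inside the 10 genes, 29 had no read in any library, and all 29 overlap an annotated exon of their host, where a read matches 2 genes. The 3 entries clear of host exons all had reads. Snora73b, inside an intron of Snhg3, had 74 and 87 reads in siCtl and 45, 39 and 62 in siUpf1 (DESeq2 log2 fold change -0.73, SE 0.301, adjusted p = 0.036), without overlap between groups, but the call was lost when any 1 library was left out (adjusted p from 0.0621 to 0.24). Snord87 in Snhg6 (16 ± 2.59 and 14.3 ± 1.75 normalised counts, DESeq2 adjusted p = 0.869) and Gm23201 in Zfas1 (46.6 ± 12.6 and 41.8 ± 5.38, DESeq2 adjusted p = 0.768) overlapped between groups. Snora73a and Gm23639 had 22 and 26 reads over all libraries and were not tested.

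Other non-coding hosts did not move one way. A list of 13 further hosts had 11 in the table (Snhg7 and Snhg16 were not analysed here). Snhg18 had no read, and Snhg11 was too low to be tested. Of the 9 tested, 3 were lower (33.3%), 3 higher (33.3%) and 3 not called, with a median log2 fold change of 0.18. The shares of all tested genes were 22.3% lower and 21.4% higher. The host 2410006H16Rik had the lowest value of these. It gave 7370 and 7656 normalised counts in siCtl and 3823, 4099 and 3873 in siUpf1 (DESeq2 log2 fold change -0.94, SE 0.049, adjusted p = 3.68e-78). Snhg17 (log2 fold change -0.28, DESeq2 adjusted p = 3.9e-06) and Snhg14 (-0.34, 0.00927), the host of the large snoRNA clusters of the Prader-Willi region, were also lower. The call for Snhg14 was lost without siCtl replicate 1 (adjusted p = 0.172) and without siUpf1 replicate 3 (0.117), while with length and GC trends removed the value was -0.61 (1.08e-09).

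Snhg10 (66.8 ± 5.56 to 107 ± 10.6 normalised counts, DESeq2 log2 fold change 0.68, adjusted p = 0.019), Snhg20 (0.25, 0.0207) and Rian (0.47, 0.0376), an imprinted host of box C/D snoRNAs, were higher. These 3 calls were fragile: with 1 library left out, 0 or 1 of them was made (siCtl replicate 1 left 0). The values of Snhg4 (-0.22, 0.0621), Dancr (0.18, 0.342) and Snhg9 (0.84, SE 0.493, 0.164) did not pass the test, Snhg9 having 10 to 38 reads a library. The value of Snhg9 was 0.36 without siCtl replicate 1 and 1.59 without siCtl replicate 3. Of the 25 tested genes that the annotation marks as non-coding hosts beyond the 10, 6 were lower and 6 higher, with a median of 0.18, and with any 1 library left out 1 to 3 were higher.

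**Figure D4:**
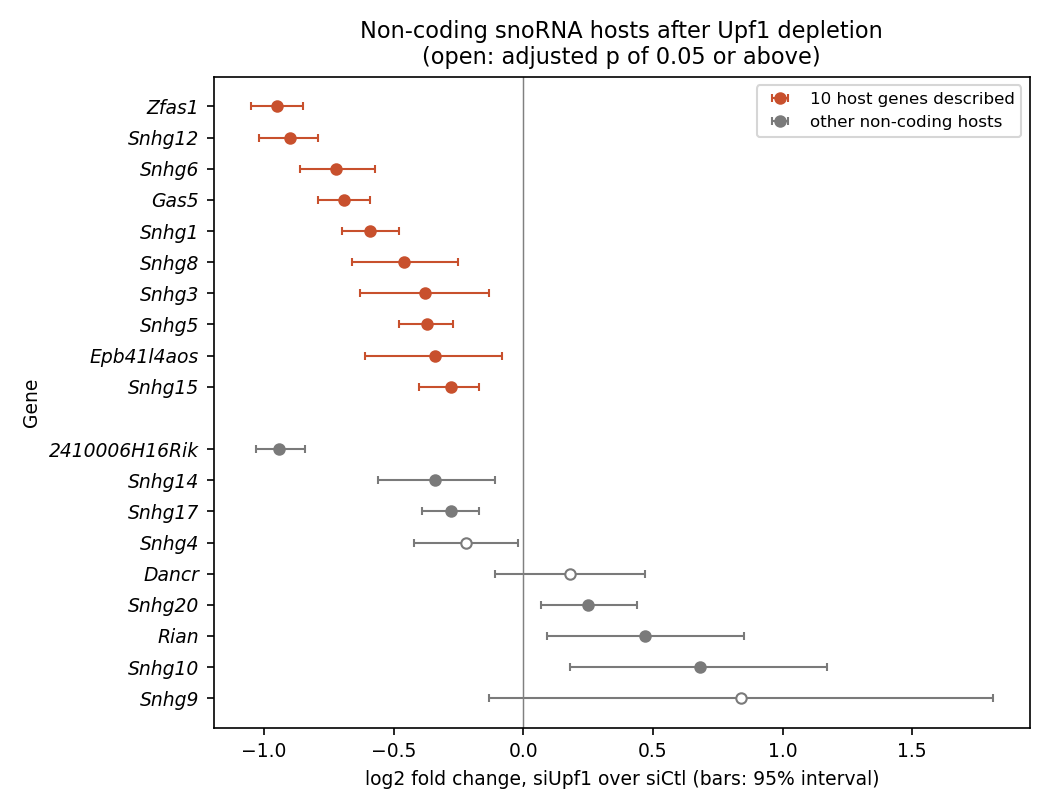
log2 fold change (siUpf1 over siCtl, horizontal axis) with its 95% interval for the 10 host genes (orange) and 9 other non-coding hosts (grey). Open points did not pass the test. The 10 lie between -0.95 and -0.28, and the others between -0.94 (2410006H16Rik) and 0.84 (Snhg9, which ranged from 0.36 to 1.59 with 1 library left out).

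Among protein-coding hosts more genes were called lower than higher, where the shares of all tested genes were 22.3% and 21.4%. In a list of 50, all tested and many of them ribosomal protein genes, 36 were lower (72.0%) and 1 was higher (2.0%). The other 13 were not called, and the median log2 fold change of the 50 was -0.34. The lowest of the 50 were Taf1d, a subunit of the RNA polymerase I factor SL1 (-0.77, SE 0.063, 4507 ± 318 to 2641 ± 153 normalised counts), Eif4a2, an initiation factor helicase (-0.69, SE 0.050), Eif4g2 (-0.65, SE 0.041) and the ribosomal protein gene Rps20 (-0.63, SE 0.050). Rpsa was the one called higher (0.14, SE 0.051, DESeq2 adjusted p = 0.018), and it was not called without siCtl replicate 1 or without siUpf1 replicate 2 (adjusted p = 0.331 and 0.118). The next highest values, Nap1l4 (0.05), Ipo7 (0.03) and Cwf19l1 (0.01), did not pass the test. Among all 229 tested protein-coding genes with an annotated snoRNA in an intron, 112 were lower (48.9%) and 38 higher (16.6%, median -0.17). Without siCtl replicate 1 or siCtl replicate 3, 23 and 24 of them were higher. The 30 that encode ribosomal proteins gave 28 lower (93.3%) and 1 higher (3.33%), with a median of -0.36. The other 199 gave 84 lower (42.2%) and 37 higher (18.6%), with a median of -0.13.

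Genes of the translation machinery, whose mRNAs are known for TOP starts, were compared next. Of 79 ribosomal protein genes 66 were lower (83.5%) and 2 higher (2.53%, median -0.28), against 22.3% and 21.4% of all tested genes. The lowest of the 79 were Rps6 (8386 ± 223 to 3380 ± 159 normalised counts, log2 fold change -1.31, SE 0.051), Rps20, Rps9 (-0.62) and Rpl36a (-0.60). Fau (0.49, SE 0.058) and Rpsa were the 2 that were higher, and Rpl24 (0.31, 15 to 27 reads a library) and Rpl29 (0.10) did not pass the test. The 49 of them without an annotated snoRNA gave 38 lower and 1 higher (median -0.23). All 17 genes on a list of elongation and initiation factors and related genes known as TOP mRNAs were lower (median -0.40, 8 of the 17 with a TOP start as counted above), from Eif4b (-0.66, SE 0.037) to Eif3l (-0.11, SE 0.042), whose call was lost in 8 of 13 alternatives. Eef1b2 and Npm1 (both -0.58) and Eef2 (-0.54) were near the lower end, and Nap1l1 (-0.28), Eif3h (-0.25) and Eef1d (-0.14) near the upper end. Some genes stand on more than 1 of these lists.

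Genes with an annotated TOP start in any transcript had a small shift as a set. Among tested genes other than the 10 hosts, 31.0% of the 1479 with an annotated TOP start were called lower and 21.9% higher (median -0.06), against 21.3% and 21.4% of the 14086 without one (median 0.01). Within the ribosomal protein genes, 31 of 35 with and 35 of 44 without such a start were lower. These 35 were part of the 1479, and the split was not adjusted for the number of annotated transcripts. When 1 representative transcript was read per gene, hosts included, the median of the 353 genes with the run was -0.04. The median of the other 15222 genes was -0.00. Whether a TOP start has an effect of its own was not tested. The 7 hosts with a TOP start had a median of -0.69 and the 3 without one a median of -0.34, and all 10 were called lower. For a junction after the first stop, 22.3% of tested genes with one and 22.4% of those without were called lower, and 24.3% and 18.6% were called higher. None of these differences between sets was tested.

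The mRNAs of proteins that build snoRNA particles were in part lower. Of 20 genes 11 were lower (55.0%), 1 higher (5.0%) and 8 not called (median -0.19), against 22.3% and 21.4% of all tested genes. Pih1d1 (log2 fold change -0.59, SE 0.076), Ruvbl1 (-0.58, SE 0.068) and Rpap3 (-0.50, SE 0.066) had the lowest values, and their proteins are parts of the R2TP complex that assembles box C/D particles. Ruvbl2, which encodes the remaining part of that complex and was named after its value was seen, was also called lower (-0.19, SE 0.055), a call lost without siCtl replicate 3 (adjusted p = 0.0964). Shq1, an assembly factor of box H/ACA particles, followed (-0.47, SE 0.099). Nhp2, a core H/ACA protein, was the one called higher (0.23, SE 0.053). Nolc1 (0.10), Znhit6 (0.10) and Snu13 (0.03) did not pass the test. Without siCtl replicate 3 only 6 of the 20 were called lower.

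Among long non-coding RNAs outside the 10 hosts, more were called higher than lower, and most were not called. Of 13 tested reference lncRNAs, not listed as snoRNA hosts, 2 were lower and 6 higher (15.4% and 46.2%, median 0.24). Neat1, the scaffold of paraspeckles, was lower (3472 ± 128 to 1734 ± 264 normalised counts, log2 fold change -1.0, SE 0.164), and so was Mir17hg (-0.27, SE 0.109), a call lost in 7 of 13 alternatives. Meg3 (1.36, SE 0.215), Mir9-3hg (1.21, SE 0.480), Kcnq1ot1 (0.74, SE 0.265) and Tug1 (0.57, SE 0.066) were higher. Without siCtl replicate 1, and likewise without siCtl replicate 3, only 3 of the 13 were called higher. Mir9-3hg, with 14 to 40 reads a library, was not called with any 1 library left out, and the value of Kcnq1ot1 was 0.17 with length and GC trends removed. Firre (-0.24) and Ftx (-0.00) did not pass the test. Over all 1398 tested lncRNA genes outside the 10 hosts, other snoRNA hosts included, 2.86% were lower and 9.87% higher (median 0.19). Both were below the shares of all tested genes (22.3% and 21.4%). Whether low counts kept genes from being called was not tested. In 14.8% of these 1398 genes every siUpf1 library lay below both siCtl libraries, and in 33.6% above both. The shares of all tested genes were 34.7% and 33.8%. The counts of calls, 40 lower and 138 higher, were 19 to 25 and 63 to 100 with 1 library left out and 84 and 284 with edgeR.

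**Figure D5:**
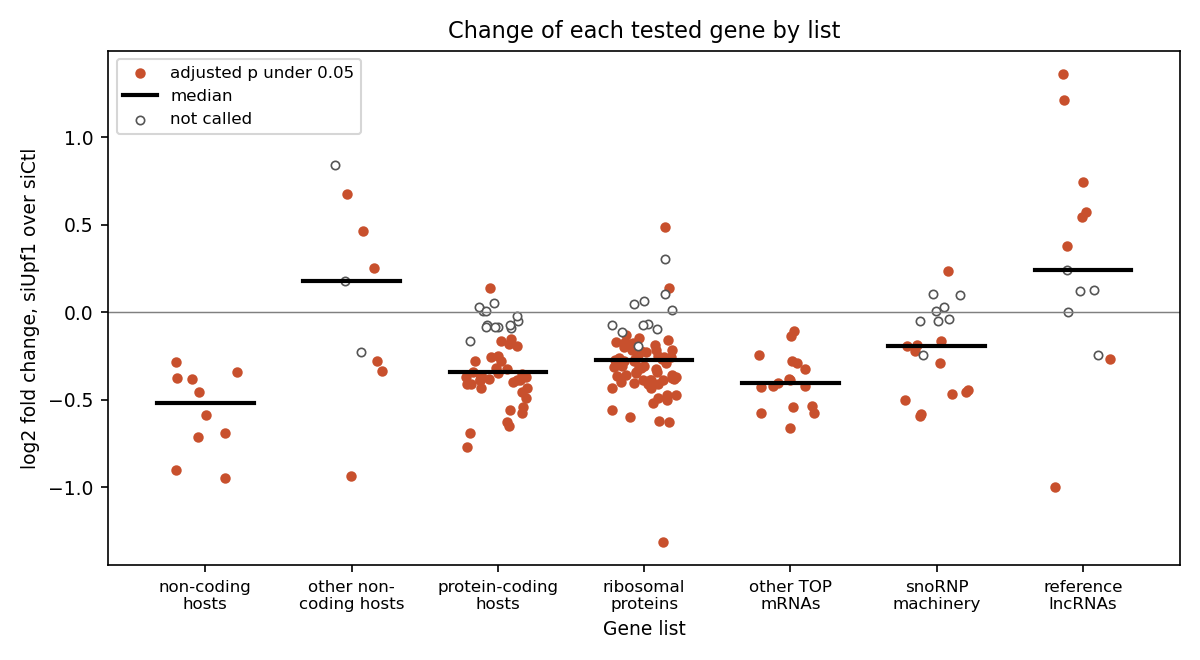
log2 fold change (siUpf1 over siCtl) of every tested gene in 7 lists. Filled points had an adjusted p under 0.05, open points did not, and bars are medians, which run from -0.52 (the 10 non-coding hosts) to 0.24 (reference lncRNAs).

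Some hosts share a promoter region with a protein-coding gene, and the partners did not follow the hosts as a group. The nearest coding start within 2000 nt was found for 4 hosts. Znfx1, which starts 81 nt from Zfas1 on the opposite strand, gave 2182 and 2022 normalised counts in siCtl and 1189, 1236 and 1334 in siUpf1 (DESeq2 log2 fold change -0.75, SE 0.073, adjusted p = 6.76e-23). Slc3a2, a subunit of amino acid transporters that starts 106 nt from Snhg1, gave 11820 and 12194 in siCtl and 15063, 15972 and 14273 in siUpf1 (DESeq2 log2 fold change 0.33, SE 0.049, adjusted p = 9.2e-11). The pair Zfas1 and Znfx1 was thus lower together, while Snhg1 was lower and Slc3a2 higher. Rcc1, 81 nt from Snhg3 on the same strand, changed little (-0.16, SE 0.057, DESeq2 adjusted p = 0.0178), a call lost without siCtl replicate 3 or siUpf1 replicate 1 (adjusted p = 0.36 and 0.102). Zbtb37, 427 nt from Gas5, had 721 ± 66.4 and 737 ± 60.4 normalised counts (DESeq2 log2 fold change 0.03, SE 0.102, adjusted p = 0.828), with overlapping groups.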

How the data were processed

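RNA-seq of poly(A) RNA from 2 siCtl and 3 siUpf1 N2A libraries was analysed. The deposited values were raw counts per gene: the authors trimmed reads with FastP, aligned them to GRCm38.p6 with STAR (2.7.0f in the processing notes) and assigned them to exons on the reverse strand with featureCounts of Subread 1.6.4 (GENCODE M22 or M25). The annotation used here, GENCODE M21, matched 99.8% of the table's genes. Counts were fitted over all 5 libraries with DESeq2 (version 1.42.0, R 4.3.3), the tool of the study's methods, with 1 term for group and its default size factors and filter on low means, and p-values were adjusted by Benjamini-Hochberg over all genes tested. Genes were called at an adjusted p under 0.05. Normalised counts are counts divided by size factors, and 95% intervals use the model's SE. A gene counted as a snoRNA host where a snoRNA lay within an intron on its strand. The representative transcript was the best supported, then longest, of those not annotated as retained intron. Those of Snhg12 and Snhg15 still held a snoRNA inside an exon.

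The 10 genes and all lists were chosen with earlier results of these data known. Named were Upf1, the 10 genes, tested further non-coding hosts, the 4 highest and 4 lowest of each other list, and snoRNA rows averaging 10 or more normalised counts. The 4 neighbouring genes were chosen by position, outside that rule, and snoRNA rows under the minimum were named to account for every row with reads. Alternatives were edgeR 4.0.16 (quasi-likelihood test), TMM or total-count size factors, a minimum of 10 counts in 2 libraries, no filter, omission of Gm42418 and mitochondrial genes, removal of length and GC trends (mgcv 1.9.3), a replicate block and omission of each library. For the neighbours, Snora73b, single genes of the further lists and 4 of the sets they were added after seeing the data, as were levels per kilobase of the spliced transcript. Scripts were tested on simulated data. The smallest p of an exact permutation test with groups of 2 and 3 is 0.1, so none was made. PCR duplicates cannot be recognised in counts. The number of unused sample columns was 0.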

Additional observations from a re-analysis of the deposited data

How the results depend on the processing

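Of 130 values (10 host genes under 13 alternatives), 117 kept direction and call, 13 kept direction only (5 of Snhg3, 8 of Epb41l4aos) and 0 reversed. Of the 10, between 8 and 10 were called lower under each alternative and 0 higher, the median ranged from -0.55 to -0.45 (-0.45 with length and GC trends removed, where the median of all genes was -0.01), and Upf1 from -1.16 to -1.07. The level of Zbtb37 reversed to -0.24 with length and GC trends removed (adjusted p = 0.0269) and ranged from -0.06 to 0.13 with 1 library left out. Uncalled values near 0 also changed sign: Cwf19l1 (-0.00 with TMM, -0.01 with length and GC trends removed, -0.02 to 0.04 with 1 library left out), Ipo7 (-0.03 with those trends removed, -0.04 to 0.10 with 1 library left out) and Ftx (0.01 with edgeR and the minimum of 10 counts, 0.02 with total counts, 0.00 without Gm42418 and mitochondrial genes, 0.08 with the replicate block, -0.09 to 0.09 with 1 library left out). Some uncalled genes passed under another setting: Snhg4 and Snhg9 with edgeR, Snhg4 also with the minimum of 10 counts, Nap1l4 and Znhit6 with those trends removed, and Nolc1 in 5 of 13 alternatives.

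The replicate numbers 1 and 3 are shared by both groups. Same-numbered libraries had correlations of -0.086 and -0.074 between their deviations from the group means over 11898 genes. The deviations of the 2 siCtl libraries are equal and opposite, so both correlations rest on the same siCtl difference. They cannot show whether same-numbered libraries were prepared together, and the labels give only the numbers. A fit with the replicate number as a block, in which siUpf1 replicate 2 has no partner, called 3935 genes (32%) in place of 6810 (43.7%). In it Snhg3 (-0.40, adjusted p = 0.148) and Epb41l4aos (-0.36, adjusted p = 0.232) were not called. The counts it moved were, for higher calls, 0 further listed hosts, 0 listed coding hosts, 0 snoRNA particle genes, 1 ribosomal protein gene, 18 annotated coding hosts, 0 further annotated non-coding hosts and 48 other lncRNA genes, and for lower calls 6 snoRNA particle genes, 1 reference lncRNA, 3 further annotated non-coding hosts and 15 other lncRNA genes.

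Other settings also moved counts, most often where 1 library was left out. The snoRNA particle genes called higher were 2 with edgeR, total counts, the minimum of 10 counts or without Gm42418 and mitochondrial genes, and 3 with length and GC trends removed, where 2 listed coding hosts were higher. Reference lncRNAs called lower were 1 with total counts and with no filter. edgeR called 84 other lncRNA genes lower and 284 higher. With 1 library left out (a lone siCtl library was assumed to vary like the rest), the ranges were 0 to 1 further listed hosts higher, 0 to 1 listed coding hosts higher, 6 to 10 snoRNA particle genes lower, 1 to 2 ribosomal protein genes higher, 1 to 2 reference lncRNAs lower and 3 to 4 higher, 23 to 35 annotated coding hosts higher, 1 to 3 further annotated non-coding hosts higher, and 19 to 25 other lncRNA genes lower and 63 to 100 higher. The cause of these moves was not tested, beyond the smaller number of libraries where 1 was left out. The 2 host genes with the fewest counts, Snhg3 and Epb41l4aos, had the largest standard errors of the 10.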
